A study of Mus musculus with 8 samples.

Results

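The oxidative phosphorylation subunits are described here as 77 nuclear genes, taken by symbol from a table of 14162 genes measured in mouse hepatic stellate cells. They are the rows named Nduf followed by a, b, c, s or v and a digit, Sdha to Sdhd, Uqcr, Cox4 to Cox8 followed by a letter, and Atp5, with assembly factors and symbols marked as pseudogenes left out. By name, 35 belong to complex I, 4 to complex II, 8 to complex III, 13 to complex IV and 17 to complex V. Several names do not match the place of the protein: Ndufa4 is found in complex IV, Cox7a2l helps to assemble supercomplexes, Atp5s is not a structural subunit and Atp5sl is an assembly protein of complex I. Of the 77 members, 76 passed the filter on low values. The exception was Cox7b2, the testis isoform of subunit 7B, which lay at 1 or 2 in each of the 8 libraries. The 13 subunits encoded in mitochondrial DNA were not analysed here.

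Oxidative phosphorylation is the last stage of respiration in the inner mitochondrial membrane. Complex I takes electrons from NADH and complex II takes them from succinate, as a step of the citric acid cycle. Both pass them through ubiquinone to complex III and on through cytochrome c to complex IV, which reduces oxygen. Complexes I, III and IV pump protons, and complex V, the ATP synthase, lets them back through a rotor to make ATP. Hepatic stellate cells store vitamin A in the healthy liver and turn into contractile, matrix-producing myofibroblasts when activated, a change known to come with altered energy metabolism.

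RNA sequencing covered 4 groups with 2 libraries each, lettered a and b. They were activated stellate cells with miR-15a, activated cells with a control microRNA, activated cells with neither, and quiescent cells. MiR-15a is a short regulatory RNA, and the design asked which genes it may target. The labels name C57BL/6J mice and SCID mice, which lack mature lymphocytes, without tying a library to a strain, and give no age, sex, culture time or way of delivering the microRNA. Whether libraries a and b of a group are separate animals, separate cultures or repeats of 1 preparation is not stated. The p-values therefore rest on the spread between libraries, and that spread may be technical.

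The deposited values are whole numbers on a normalized scale rather than raw counts, and the depth of each library is unknown. All 8 libraries share the same 910 distinct values, with totals between 10193036 and 10234768. The values are not per transcript length, so levels are compared between groups and not between genes. Libraries of a group correlated at 0.988 to 0.991 across genes on the log2 scale. Markers of other liver cells differed strongly between the groups. The 14 endothelial markers summed to 10322 to 10500 in miR-15a libraries, 1935 to 2440 in control microRNA libraries, 1349 to 1519 in activated cells and 182229 to 252068 in quiescent cells. The sums of 12 macrophage markers in the same order were 12836 to 14066, 2189 to 2432, 1661 to 1843 and 136959 to 158494. Those of 13 hepatocyte markers were 1754 to 2432, 330 to 1624, 437 to 580 and 14914 to 17522. The 10 myofibroblast markers summed to 358094 to 478287, 393062 to 446129, 516531 to 525757 and 3078 to 3495. The stellate markers Lrat, Gfap and Lhx2 were not in the table, and the 9 others of the quiescent stellate list summed to 2322 to 2509, 1464 to 1728, 1710 to 1787 and 16372 to 17355. In these bulk samples, fewer cells of a type and less RNA per cell cannot be told apart.

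Most subunits were higher in activated than in quiescent cells. Of the 76 tested members, 67 rose and 2 fell at an adjusted p under 0.05 in limma, while 7 passed in neither direction. Across all 13150 genes tested, 45.4% were called higher and 34.1% lower, so calls in this comparison were common. The median log2 fold change of the members was 1.02, against 0.21 over all genes tested. Both activated libraries lay above both quiescent ones for 69 members, a pattern seen in 51.1% of all genes, and below them for 3 members, seen in 38.9%. The median level of the members, on the log2(value + 5) scale, was 9.39 and 9.35 in activated libraries and 8.41 and 8.35 in quiescent ones.

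The counts and medians were not the same for the 5 complexes, a difference that was not tested. Complex I had 34 of 35 members higher and a median log2 fold change of 1.23. Complex V had 14 of 17 higher and 1 lower, with a median of 1.02. Complex III had 7 of 8 higher with a median of 0.96, and complex IV had 10 of 12 higher with a median of 0.75. Complex II, the only complex that also works in the citric acid cycle, had 2 of 4 higher and 1 lower, with a median of 0.18. The complex II median was -0.10 when the values were rescaled by median-ratio size factors. That rescaling moved the median of all genes to -0.06 and the calls over all genes to 36.3% higher and 41.2% lower, and it left 59 members higher and 3 lower, with a median of 0.74.

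**Figure D1:**
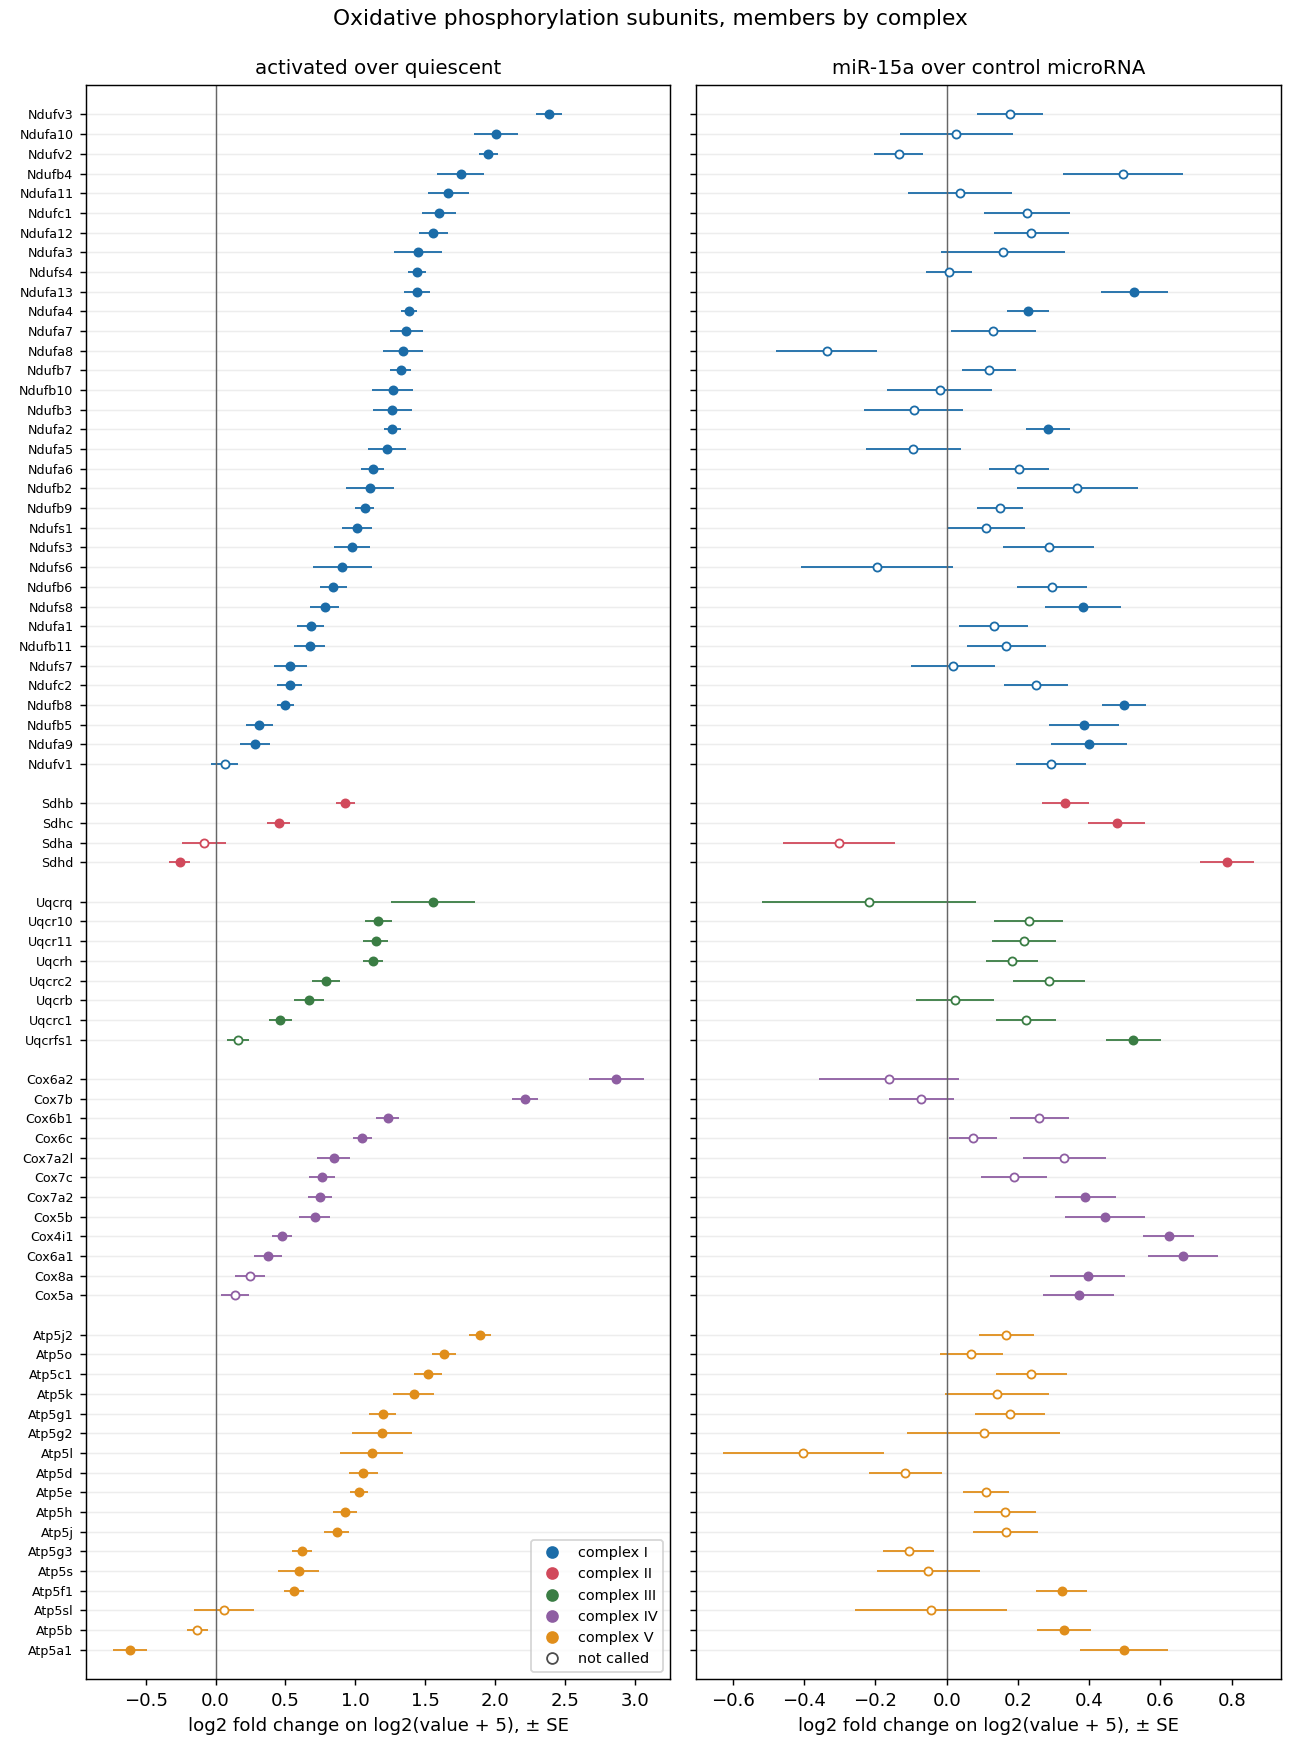
Log2 fold change (horizontal axis, log2(value + 5) scale) of 75 tested members, in activated over quiescent cells (left) and in miR-15a over control microRNA libraries (right). Bars are standard errors, filled points passed an adjusted p of 0.05 and colours mark the complexes. In the left panel 66 filled points lie right of 0 and 2 lie left of it. In the right panel all 20 filled points lie right of 0.

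Transcript length moved with this comparison. The longest protein-coding transcript of the members had a median of 908 bases, against 3169 bases over the tested genes, of which 90.6% had a length. Among genes that are not members, the median log2 fold change in activated over quiescent cells was 0.98 for transcripts under 800 bases (269 genes), 0.66 for 800 to 1499 bases, 0.36 for 1500 to 2499 bases, 0.17 for 2500 to 3999 bases and -0.12 for 4000 bases and over. The members of the same classes had medians of 1.09 (32 members), 0.98 (23 members), 0.69 (14 members), 0.18 (4 members) and 1.15 (2 members). Short genes as a whole were higher in activated cells, and the medians of the members in the 3 shorter classes lay 0.11 to 0.34 above those of other genes of like length. When the trend with length over the other genes was removed from each library, an alternative chosen after seeing the data, 27 members were higher and 16 lower, with a median of 0.08, against 38.6% and 37.5% of all genes. In that fit 28 members changed sign, and Cox8a, Cox5a, Cox6a1, Ndufa1, Uqcrb, Ndufc2, Cox4i1, Ndufb5, Atp5g3, Uqcrfs1, Atp5e, Ndufv1 and Cox7a2 passed as lower. The part of transcript length in the rise was not tested beyond this, and neither was that of the endothelial, macrophage and hepatocyte markers, all of which were called lower in activated cells.

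**Figure D2:**
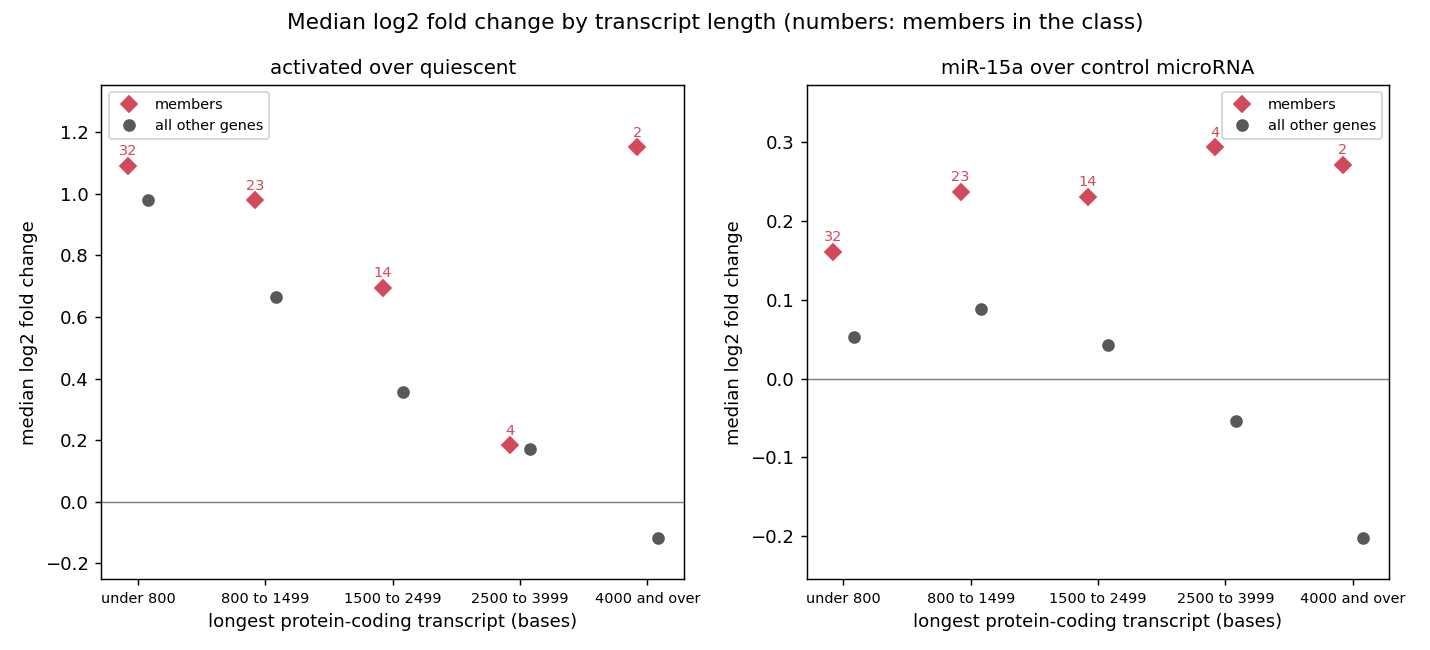
Median log2 fold change (vertical axis) of members (diamonds) and of all other tested genes (circles) by class of longest protein-coding transcript in bases (horizontal axis), for activated over quiescent cells (left) and miR-15a over control microRNA libraries (right). Numbers give the members in each class. On the left the other genes fall from 0.98 in the shortest class to -0.12 in the longest. On the right the members lie between 0.16 and 0.29 and the other genes between -0.20 and 0.09.

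Complex I opens the chain with a flavin-bearing arm that oxidizes NADH. Ndufv2, an iron-sulphur subunit of that arm, had values of 972 and 985 in activated libraries and 255 and 244 in quiescent ones. Its log2 fold change was 1.95 ± 0.07 (SE), with an adjusted p of 1.4e-07 in limma. Ndufv1, the subunit that carries the flavin and binds NADH directly beside Ndufv2, behaved otherwise, with overlapping values of 1056 and 896 in activated libraries and 866 and 998 in quiescent ones. Its log2 fold change was 0.06 ± 0.10 (adjusted p = 0.55), and it was the complex I member that did not pass. Ndufs1, the iron-sulphur subunit next in the electron path, had values of 844 and 771 in activated libraries and 372 and 424 in quiescent ones, 1.01 higher in log2 (adjusted p = 7.1e-05). The groups of Ndufs1 did not overlap.

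Nearer the ubiquinone site, the core subunits named here had smaller fold changes than Ndufv2, a difference that was not tested. Ndufs3, a core subunit of the ubiquinone module, had values of 322 and 317 in activated libraries and 169 and 151 in quiescent ones. Ndufs8, which carries iron-sulphur clusters, was at 400 and 366 in activated libraries and at 212 and 230 in quiescent ones. In both genes the activated libraries lay well clear of the quiescent ones, with log2 fold changes of 0.98 ± 0.13 and 0.78 ± 0.11. Ndufs7, which holds the last iron-sulphur cluster before ubiquinone, was at 542 and 549 in activated libraries and at 346 and 406 in quiescent ones. Its groups did not overlap, and its log2 fold change was 0.54 ± 0.12, a call that was lost when the values were rescaled by median ratio.

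Accessory subunits surround this core and help its assembly and stability. Ndufv3, an accessory subunit of the NADH arm, had the highest log2 fold change of the complex. Its values were 440 and 392 in activated libraries and 78 and 73 in quiescent ones, a log2 difference of 2.39 ± 0.09 (adjusted p = 2.2e-07). Ndufa10, an accessory subunit of the membrane arm, was at 725 and 702 in activated libraries and at 149 and 202 in quiescent ones, a log2 difference of 2.01 ± 0.16. At the other end stood Ndufa9, which sits near the ubiquinone site, with 824 and 722 in activated libraries and 600 and 672 in quiescent ones. Ndufb5, another accessory subunit, had 488 in both activated libraries and 400 and 384 in quiescent ones. Their log2 fold changes of 0.28 and 0.31 passed with adjusted p of 0.043 and 0.019, and the calls were kept under only 8 and 11 of 17 alternatives. Both were lost under median-ratio rescaling and without quiescent library a, quiescent library b or activated library a. Ndufa4, named for complex I and found in complex IV, had 1634 and 1590 in activated libraries and 632 and 598 in quiescent ones, 1.38 higher in log2. Besides these, 21 members of complex I all rose, by 0.50 (Ndufb8) to 1.75 (Ndufb4) in log2.

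The 4 subunits of complex II did not share 1 direction on activation. Sdhb, which carries the iron-sulphur clusters, had values of 483 and 470 in activated libraries and 252 and 244 in quiescent ones. Sdhc, the large membrane anchor, was at 1268 and 1282 in activated libraries and at 866 and 1002 in quiescent ones. Both rose without overlap, by 0.93 ± 0.07 and 0.45 ± 0.08 in log2 (adjusted p = 6.5e-06 and 0.0012), and the call of Sdhc was lost under median-ratio rescaling (0.17, adjusted p = 0.089). Sdhd, the small membrane anchor that pairs with Sdhc, was lower in activated libraries, at 966 and 896, against 1064 and 1162 in quiescent ones. Its log2 fold change was -0.26 ± 0.08 (adjusted p = 0.015), and the call was lost without quiescent library b, and without activated library b. Sdha, the flavin subunit that oxidizes succinate, was at 690 and 765 in activated libraries and at 782 and 760 in quiescent ones, which overlap.

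**Figure D3:**
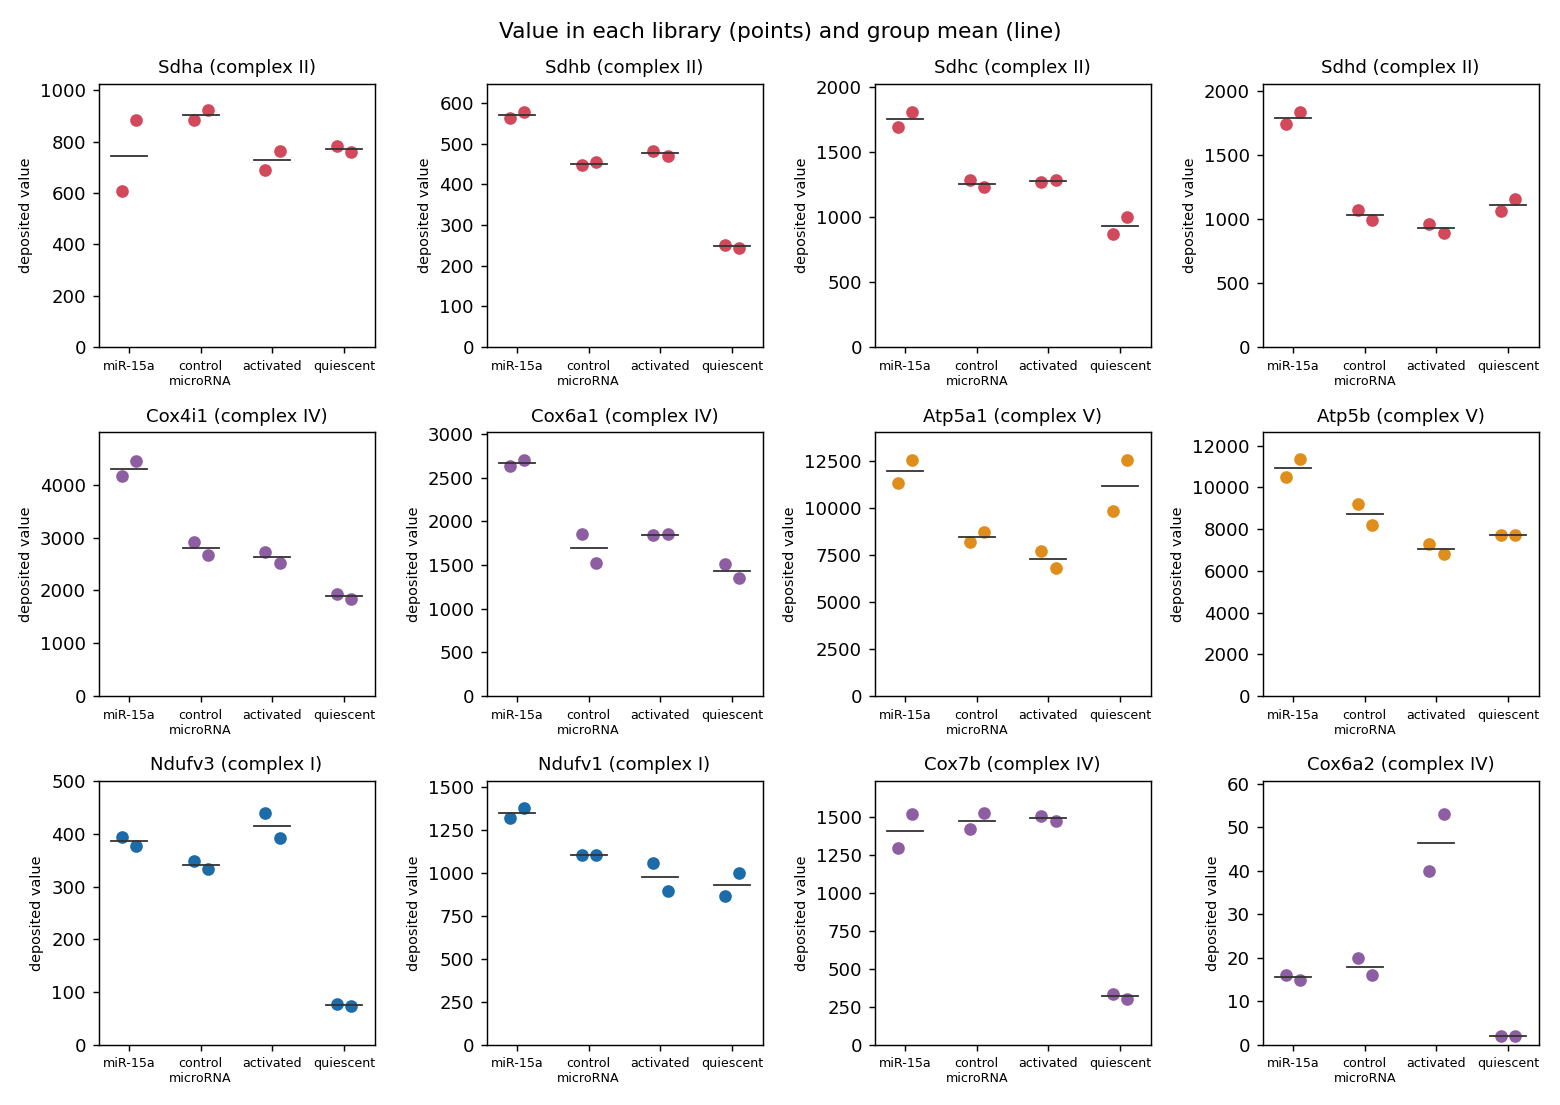
Deposited value (vertical axis, normalized score, from 0) of 12 members in each library. Points are the 2 libraries of a group and lines their means, with groups in the order miR-15a, control microRNA, activated and quiescent. Sdhd lies at 1743 and 1842 in the miR-15a libraries, above all other libraries, and Atp5a1 is at 7720 and 6822 in activated cells, below its other groups.

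Complex III passes electrons from ubiquinol to cytochrome c. Its Rieske iron-sulphur protein Uqcrfs1 was at 603 and 634 in activated libraries and at 532 and 574 in quiescent ones. These values do not overlap, and the difference of 0.16 ± 0.08 in log2 did not pass (adjusted p = 0.087). The core proteins Uqcrc2, at 946 in both activated libraries against 516 and 574 in quiescent ones, and Uqcrc1, at 1440 and 1380 in activated libraries against 962 and 1086 in quiescent ones, rose by 0.79 and 0.46 in log2. The call of Uqcrc1 was lost under median-ratio rescaling. Among the small accessory subunits, Uqcr10 had 559 and 513 in activated libraries and 248 and 225 in quiescent ones, 1.16 ± 0.10 higher in log2. Uqcrq, a ubiquinone-binding protein with low values throughout, was at 41 and 26 in activated libraries and at 10 and 6 in quiescent ones, 1.56 ± 0.30 higher in log2. The other members Uqcr11, Uqcrh, the hinge protein, and Uqcrb rose by 1.14, 1.12 and 0.67. With the length trend removed, Uqcr10, Uqcr11, Uqcrh and Uqcrb were at -0.20, -0.20, -0.077 and -0.55, and Uqcrc2 was at 0.44.

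Complex IV, cytochrome c oxidase, has its catalytic centre in subunits made in the mitochondrion, and the members here are the nuclear subunits around it. Several of them rose by less than the median of the complex. Cox4i1, the largest nuclear subunit, had 2732 and 2528 in activated libraries and 1936 and 1842 in quiescent ones. Cox6a1, the ubiquitous isoform of subunit 6A, had 1842 and 1858 in activated libraries and 1508 and 1346 in quiescent ones. The activated libraries lay above the quiescent ones in both, by 0.48 ± 0.07 and 0.38 ± 0.10 in log2, and the call of Cox6a1 was lost without quiescent library b and under median-ratio rescaling. With the length trend removed both passed as lower, at -0.49 and -0.80 (adjusted p = 2e-04 and 6.6e-05). Cox5a and Cox8a, structural subunits, did not pass, with log2 fold changes of 0.14 and 0.25 (adjusted p = 0.24 and 0.065), and both were at -0.95 with the length trend removed. Cox5b, which binds zinc, and Cox7a2, the ubiquitous isoform of subunit 7A, rose by 0.71 ± 0.11 and 0.74 ± 0.09. Cox7a2l and Cox6b1, a subunit on the side of cytochrome c, rose by 0.84 ± 0.12 and 1.23 ± 0.08. The accessory subunits Cox6c and Cox7c rose by 1.05 and 0.76.

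The members of complex IV with the highest fold changes were Cox7b and Cox6a2. Cox7b, an accessory subunit encoded on the X chromosome, had 1506 and 1472 in activated libraries and 333 and 302 in quiescent ones, a log2 difference of 2.21 ± 0.09 (adjusted p = 2.9e-07). The other X-linked members, Ndufa1 and Ndufb11, rose by 0.68 each. Xist, the RNA that silences an X chromosome in female cells, was at 169 and 21 in activated libraries and at 8724 in both quiescent ones. It was at 3373 in both miR-15a libraries and at 3373 and 5027 in control microRNA libraries, so the activated libraries lay far below all other groups. The part of what sets the libraries apart in Xist was not tested in any of the comparisons. Cox6a2, the isoform known from heart and skeletal muscle, had 40 and 53 in activated libraries and 2 in both quiescent ones. Its log2 fold change of 2.87 ± 0.20 is the highest of all members on the log2(value + 5) scale, which understates changes of low genes.

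The alpha and beta subunits, which form the catalytic head of the ATP synthase, did not share the rise of complex V. Atp5a1, the alpha subunit, had 7720 and 6822 in activated libraries and 9821 and 12562 in quiescent ones, without overlap. The log2 fold change of -0.61 ± 0.12 (adjusted p = 0.0023) was the lowest of all members. Atp5b, the beta subunit with the catalytic sites, had 7290 and 6825 in activated libraries and 7720 and 7724 in quiescent ones, and its fold change of -0.13 ± 0.08 did not pass (adjusted p = 0.15). Atp5c1, the gamma subunit that turns inside the head, had 1614 and 1664 in activated libraries and 620 and 522 in quiescent ones, 1.52 ± 0.10 higher in log2. Reads from the annotated pseudogenes of Atp5c1, and of Uqcrh, Atp5k and Atp5l, may have been counted with the gene or lost, since the counting settings are not given in the sources used here. Only pseudogenes named after a member's own symbol were sought, so other members may have pseudogenes under other names.

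The tested members of the membrane part, the rotor ring and the stalk all rose. Atp5j2, the f subunit, had 800 and 852 in activated libraries and 218 and 220 in quiescent ones, a log2 difference of 1.89 ± 0.08. Atp5o, the oligomycin sensitivity conferring protein that ties the stalk to the head, had 1094 and 1064 in activated libraries and 315 and 376 in quiescent ones, a difference of 1.63 ± 0.09. Its exons overlap those of Donson on the same strand, so reads there cannot be told apart by strand. Exon sequence was shared with another annotated gene in 28 of the 77 members. The c subunit of the rotor ring comes from 3 genes with the same mature protein. Atp5g1, Atp5g2 and Atp5g3 rose by 1.20 ± 0.10, 1.19 ± 0.22 and 0.62 ± 0.07. The lowest rise among called members of complex V was that of Atp5f1, the b subunit of the stalk, at 0.56 ± 0.07. The e and g subunits Atp5k and Atp5l rose by 1.42 and 1.12, the delta and epsilon subunits Atp5d and Atp5e by 1.06 and 1.02, and the stalk subunits Atp5h and Atp5j by 0.93 and 0.87. Atp5s rose by 0.59, a call lost under median-ratio rescaling. Atp5sl, the misnamed assembly protein, was at 42 and 37 in activated libraries and at 32 and 44 in quiescent ones, with overlap.

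With miR-15a, a smaller group of subunits was higher than with the control microRNA. Of the 76 tested members 20 rose and none fell in limma, while 14.4% of all genes tested were called higher and 15.4% lower. Those shares differed with transcript length. Among genes that are not members, 18.2% were higher and 2.60% lower for transcripts under 800 bases. For 4000 bases and over, 11.1% were higher and 30.4% lower. At an unadjusted p under 0.05, 35 of the 76 members differed, as did 5465 of the 13150 genes tested. The median log2 fold change of the members was 0.19, against -0.07 over all genes. Both miR-15a libraries lay above both control microRNA libraries for 51 members, a pattern seen in 27.7% of all genes, and below them for 5, seen in 38.2%. Complex IV had 6 of 12 members higher with a median of 0.35, complex II 3 of 4 with a median of 0.41 and complex I 7 of 35 with a median of 0.18. Complex III had 1 of 8 and complex V 3 of 17, with medians of 0.22 and 0.14. Under median-ratio rescaling the calls were 33 members higher and 0 lower, and 17.6% and 12.0% of all genes. Fewer members were called higher without control microRNA library b, and without miR-15a library a or b. The shares of all genes called in those fits are not given here, so the drop has no background beside it.

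Complex II held the member with the highest fold change with miR-15a. Sdhd had 1743 and 1842 in miR-15a libraries and 1076 and 998 in control microRNA libraries, a log2 difference of 0.79 ± 0.08 (adjusted p = 0.00033). Its partner Sdhc had 1694 and 1810 with miR-15a and 1282 and 1232 with the control, and Sdhb had 562 and 577 with miR-15a and 448 and 454 with the control. Those genes rose by 0.48 ± 0.08 and 0.33 ± 0.07. In all 3 genes both miR-15a libraries lay above every other library of the series. Sdha, the catalytic subunit, had 606 and 885 with miR-15a and 885 and 924 with the control, and its fold change of -0.30 ± 0.16 did not pass (adjusted p = 0.19). The miR-15a libraries of Sdha lay further apart than the libraries of any other group in a complex II gene.

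In complex IV the 6 members called with miR-15a were the 6 with the lowest log2 fold changes on activation, 0.14 to 0.74. Over the 76 tested members, the mean log2 value correlated with the fold change on activation at r = -0.48 (all genes 0.14). With the miR-15a fold change it correlated at 0.54 (all genes 0.03). The part of the level of a gene in this pattern was not tested. Cox6a1 had 2640 and 2700 in miR-15a libraries and 1858 and 1526 in control microRNA libraries, a log2 difference of 0.66 ± 0.10 (adjusted p = 0.0027). Cox4i1 had 4168 and 4446 with miR-15a and 2922 and 2670 with the control, a difference of 0.62 ± 0.07 (adjusted p = 0.00084). The exons of Cox4i1 overlap those of Emc8 on the opposite strand, so reads of the genes cannot be told apart if strand was not used. Cox5b, Cox8a, Cox7a2 and Cox5a rose by 0.44, 0.40, 0.39 and 0.37, with adjusted p of 0.014 to 0.029. Cox7b, which had risen by 2.21 in log2 on activation, had 1296 and 1515 with miR-15a and 1420 and 1526 with the control, which overlap. Cox6a2, at 16 and 15 with miR-15a against 20 and 16 with the control, did not pass either.

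The remaining calls fell in complexes I, III and V. Ndufa13, an accessory subunit also known as a cell death regulator, had 2076 and 2528 with miR-15a and 1604 and 1573 with the control, 0.53 ± 0.09 higher in log2. Ndufb8, a membrane-arm subunit often used to gauge complex I, had 1006 and 1040 with miR-15a and 728 and 718 with the control, 0.50 ± 0.06 higher. Ndufs8 was 0.38 ± 0.11 higher, a call kept under only 7 of 17 alternatives and in 1 of the 8 fits that left out 1 library (highest adjusted p = 0.15). Ndufv1 (0.29, adjusted p = 0.058) and Ndufs3 (0.29) missed the threshold, and the genes were not tested against each other. The lowest called fold changes of complex I were those of Ndufa4 at 0.23 and Ndufa2, an accessory subunit of the NADH arm, at 0.29. Of the 20 called members, 9 share exon sequence with another annotated gene. These are Ndufa2, Ndufa9, Ndufa13, Ndufb5, Cox4i1, Cox5a, Atp5a1 and Atp5f1, each with a gene on the opposite strand, and Ndufb8, with Gm20538 on the same strand.

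In complex III, Uqcrfs1 had 885 and 956 with miR-15a and 662 and 615 with the control, 0.52 ± 0.08 higher (adjusted p = 0.0026). The core proteins Uqcrc1 and Uqcrc2 had fold changes of 0.22 and 0.29 that did not pass. In complex V, Atp5a1 had 11352 and 12562 with miR-15a and 8202 and 8724 with the control, and Atp5b had 10507 and 11355 with miR-15a and 9200 and 8204 with the control. Both rose without overlap, by 0.50 ± 0.12 and 0.33 ± 0.08, and Atp5f1 rose by 0.32 ± 0.07. The c-ring genes Atp5g1, Atp5g2 and Atp5g3 had fold changes of 0.18, 0.10 and -0.11, none of which passed. Under every alternative that was run, apart from the limit on fold size, 7 of the 20 calls were kept: Sdhb, Sdhc, Sdhd, Uqcrfs1, Ndufb8, Cox4i1 and Cox6a1.

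Cell type markers were also called in the same comparison. Of 14 endothelial markers 12 were called higher and 1 lower with miR-15a, and all 12 macrophage markers were called higher. Pecam1, an endothelial adhesion protein, averaged 2717.5 with miR-15a and 33 with the control, and the macrophage receptor Marco averaged 1238.5 with miR-15a and 2.5 with the control. Among 10 myofibroblast markers 3 were lower and none higher, and the summed values of the 2 groups overlapped. Of 13 hepatocyte markers 2 were higher and 0 lower, and of 9 quiescent stellate markers 4 were higher and 1 lower. For 17 of the 20 members called with miR-15a, the quiescent libraries had the lowest mean of the 4 groups. The activated libraries had it for the other 3, Sdhd, Atp5a1 and Atp5b. How often other genes called higher with miR-15a had these orders is not given here, so both counts have no background beside them. The part of these cell type markers in the rise of the 20 members was not tested.

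The activated cells with neither microRNA give a second point of reference, and these comparisons share the miR-15a or the activated libraries with those above. Against activated cells, 29 members were higher with miR-15a and 2 lower, where 16.8% of all genes were higher and 21.6% lower. Sdhd (0.94 ± 0.08), Atp5a1 (0.72 ± 0.12) and Cox4i1 (0.71 ± 0.07) had the highest fold changes. The members lower with miR-15a were Ndufv2, at 792 and 731 against 972 and 985 in activated cells, and Cox6a2, at 16 and 15 against 40 and 53. Their log2 fold changes were -0.36 ± 0.07 and -1.32 ± 0.20. Under median-ratio rescaling 38 were higher and 2 lower, with 23.7% and 12.5% of all genes. Fewer members were called higher without activated library b, and the share of all genes called in that fit is not given here. The control microRNA against activated cells gave 2 members higher and 1 lower, with backgrounds of 7.18% and 6.61%. These were Atp5b (0.30), Atp5g3 (0.32) and Cox6a2 (-1.16). Rescaled, 3 were higher and 1 lower, with 10.4% and 3.76% of all genes. Cox6a2 was thus called lower in both microRNA groups than in activated cells, and it did not differ between them past the threshold. Its values are low, and its call with the control microRNA was lost in the fit of the 2 groups alone.

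Against quiescent cells, 72 members were higher with miR-15a and none lower, with backgrounds of 37.1% and 34.4% and a member median of 1.10. With the control microRNA 66 were higher and 1 lower, with backgrounds of 40.7% and 33% and a median of 0.95. The mean over the 2 libraries was lowest in quiescent cells for 71 of the 76 members. It was highest with miR-15a for 54 members, in activated cells for 17, with the control microRNA for 5 and in quiescent cells for 0. Complex IV had its highest mean with miR-15a in 10 of 12 members and complex V in 10 of 17. How often all genes tested had their lowest or highest mean in each group is not given here. These counts of means therefore have no background and do not by themselves show an order particular to the members.

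Activated against quiescent cells and miR-15a against the control microRNA share no library, so members can be set side by side in both. Of the 67 members that rose on activation, 14 were also higher with miR-15a, 53 were not called and 0 were lower. Over all genes, 5968 rose on activation, of which 372 were higher with miR-15a, 4370 not called and 1226 lower. The 2 members that fell on activation, Atp5a1 and Sdhd, were both higher with miR-15a. Of the 4483 genes that fell, 1357 were higher with miR-15a, 2670 not called and 456 lower. Of the 7 not called on activation, Atp5b, Cox5a, Cox8a and Uqcrfs1 were higher with miR-15a and Sdha, Ndufv1 and Atp5sl were not called. Of the 2699 genes not called on activation, 168 were higher with miR-15a, 2184 not called and 347 lower. Across the 76 members the fold changes of both comparisons correlated at r = -0.41 (Spearman's rho = -0.43), and across all 13150 genes at r = -0.60 (rho = -0.37). Genes are not independent replicates, and all members share the same libraries.

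**Figure D4:**
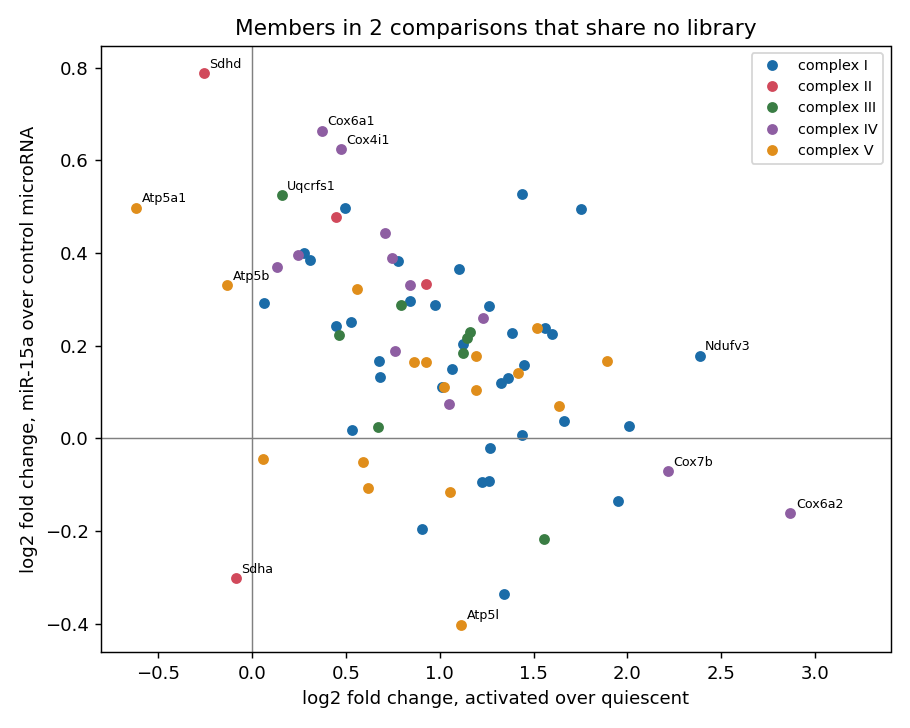
Log2 fold change of the 76 tested members in activated over quiescent cells (horizontal axis) against miR-15a over control microRNA libraries (vertical axis), coloured by complex, with grey lines at 0. Of the 4 members left of 0, Sdhd (-0.26 and 0.79), Atp5a1 (-0.61 and 0.50) and Atp5b (-0.13 and 0.33) lie above 0 and Sdha (-0.08 and -0.30) lies below it, and Cox7b (2.21 and -0.07) and Cox6a2 (2.87 and -0.16) lie low at the right. The correlation over the points is -0.41.

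The trend of the medians with length was weaker with miR-15a than on activation. Other genes had medians of 0.05, 0.09, 0.04, -0.05 and -0.20 from the shortest to the longest class. Members had 0.16, 0.24, 0.23, 0.29 and 0.27. In the same order, 18.2%, 20.5%, 18.2%, 15.4% and 11.1% of other genes were called higher. Called lower were 2.60%, 2.90%, 6.01%, 12.7% and 30.4% of them. The members called higher were 7 of 32, 8 of 23, 3 of 14, 2 of 4 and 0 of 2. With the length trend removed, 14 members were higher with miR-15a and 0 lower. The share of all genes called in that fit is not given here, so the count has no background beside it.

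Genes that build or feed the chain were taken as lists beside the subunits. On activation, when 45.4% of all genes were higher and 34.1% lower, 12 of 15 complex I assembly factors were higher and 1 lower, and 22 of 30 assembly factors of the other complexes were higher and 1 lower. Uqcc2, an assembly factor of complex III, averaged 742 in activated cells and 119.5 in quiescent ones. Of 14 citric acid cycle enzymes 12 were higher and none lower, with Idh3a, the catalytic subunit of isocitrate dehydrogenase, at 1.99 ± 0.13 in log2. Of 17 genes for cytochrome c, coenzyme Q and electron entry 11 were higher and 2 lower. Of 14 regulators of mitochondrial biogenesis 3 were higher and 7 lower. Pprc1, a coactivator related to PGC-1, averaged 189 in activated cells and 662 in quiescent ones. Pdk4, a kinase that blocks pyruvate entry, averaged 139 in activated cells and 3444 in quiescent ones, while its relative Pdk3 averaged 582 in activated cells and 132 in quiescent ones. Of 14 genes of pyruvate entry 8 were higher and 4 lower, and of 13 hypoxia response genes 9 were higher and 4 lower. In the order given here, the list medians in log2 were 0.72, 0.91, 0.80, 0.54, -0.19, 0.64 and 1.11, against 0.21 over all genes. Nothing particular to a list was tested.

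With miR-15a, 14.4% of all genes were higher and 15.4% lower than with the control microRNA. None of 15 complex I assembly factors passed in limma in either direction, and of 30 factors for the other complexes 3 were higher and 2 lower. Among 14 citric acid cycle enzymes 2 were higher and 2 lower, with Ogdh, a subunit of the oxoglutarate dehydrogenase complex, averaging 700 with miR-15a and 1210.5 with the control. Among 17 genes for cytochrome c, coenzyme Q and electron entry 1 was higher and 1 lower. The lower gene was Gpd2, the mitochondrial glycerol phosphate dehydrogenase, at -0.59 ± 0.08 in log2. Of 14 biogenesis regulators 1 was higher and 1 lower. Pdk4 averaged 235.5 with miR-15a and 125 with the control, one of 2 genes of pyruvate entry called higher, against 1 lower. Of 13 hypoxia response genes 5 were higher and 3 lower, and Adm, a vasodilator peptide, averaged 250.5 with miR-15a and 56 with the control. The list medians in the same order were 0.03, 0.08, -0.06, 0.17, -0.10, -0.05 and 0.11, against -0.07 over all genes.

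The sequence of miR-15a was set against the 3′ UTRs of the members, since direct targets of a microRNA usually carry its seed complement there. The mature strand is given from RefSeq (GRCm38.p6, chr14:61632075-61632096, minus strand), with the seed, bases 2 to 8, in capitals, and below it the matches in members (GENCODE M21, GRCm38), with the letters TGCTGCT in capitals.
mmu-miR-15a-5p: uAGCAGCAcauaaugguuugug
Ndufb4: gaacgtgagcTGCTGCTgaggcgctag
Atp5g1, the first site: cagccgtcccTGCTGCTttgactccat
Atp5g1, the second site: gagcactgacTGCTGCTcttcagaggt
Atp5g1, the third site: cagtttcacaTGCTGCTggggaccagg
The capitals of Ndufb4 lie at chr16:37647246-37647252 on the minus strand, and those of Atp5g1 at chr11:96073070-96073076, chr11:96071477-96071483 and chr11:96069832-96069838, also on the minus strand. These were the only matches in the longest 3′ UTR of 76 members, or 2 members (2.63%), against 2899 of 11872 tested genes with an annotated 3′ UTR (24.4%). Members have short 3′ UTRs, with a median of 219 bases against 1195 bases. Neither gene was called with miR-15a: Ndufb4, an accessory subunit of complex I, had 114 and 102 with miR-15a and 84 and 67 with the control (0.50 ± 0.17, adjusted p = 0.063), and Atp5g1 had 786 and 665 with miR-15a and 642 and 636 with the control (0.18 ± 0.10).

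Promoters were searched because many subunits moved together. RefSeq gives a window from 250 bases before to 50 after the start (GRCm38.p6) for 62 members. The letters GCGCA and GCGC with any 1 base between them, bound by NRF1, a known activator of respiratory genes, were found on either strand in 16 of 62 members (25.8%), 11.2% of tested genes with a window and 4.60% of all 32851 windows. CCGGAAG, bound by GABPA, was also in 16 members, against 19.4% and 8.86%. AAGATGGCG, bound by YY1, was in 7 members (11.3%), against 3.53% and 1.40%. The windows of Sdhd and Cox6a1, with the highest fold changes with miR-15a, and of Ndufv3, with the highest rise of complex I on activation, are shown 5′ to 3′ with matches on either strand in capitals.
Sdhd: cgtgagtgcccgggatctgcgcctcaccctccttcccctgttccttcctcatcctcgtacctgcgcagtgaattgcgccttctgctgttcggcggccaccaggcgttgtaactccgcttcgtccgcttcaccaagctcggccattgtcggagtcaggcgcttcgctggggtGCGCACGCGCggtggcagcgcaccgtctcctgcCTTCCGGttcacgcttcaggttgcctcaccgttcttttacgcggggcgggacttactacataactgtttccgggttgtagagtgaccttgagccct
Cox6a1: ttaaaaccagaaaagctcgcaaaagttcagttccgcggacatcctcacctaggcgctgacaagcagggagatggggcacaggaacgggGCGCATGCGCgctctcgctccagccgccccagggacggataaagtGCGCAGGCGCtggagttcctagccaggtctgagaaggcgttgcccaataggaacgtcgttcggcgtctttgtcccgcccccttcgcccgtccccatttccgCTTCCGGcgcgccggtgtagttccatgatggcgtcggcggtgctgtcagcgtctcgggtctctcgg
Ndufv3: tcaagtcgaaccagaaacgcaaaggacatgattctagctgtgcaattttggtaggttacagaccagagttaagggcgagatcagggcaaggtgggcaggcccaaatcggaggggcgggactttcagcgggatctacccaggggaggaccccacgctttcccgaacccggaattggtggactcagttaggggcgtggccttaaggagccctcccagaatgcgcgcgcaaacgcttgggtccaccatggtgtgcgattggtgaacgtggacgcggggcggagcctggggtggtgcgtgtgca
They lie at chr9:50603800-50604099 on the minus strand, chr5:115348909-115349208 on the minus strand and chr17:31519865-31520164 on the plus strand. Sdhd holds 1 match to the NRF1 letters and 1 to those of GABPA, Cox6a1 holds 2 and 1, and Ndufv3 holds none of the 3 motifs. On activation the median log2 fold change was 1.16 for the 16 members with the NRF1 letters, 0.95 for the 16 with those of GABPA, 0.91 for the 7 with those of YY1 and 1.08 for the 28 with none. With miR-15a the medians were 0.12, 0.24, 0.17 and 0.23. A match is a description of the letters and not a measured binding site.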

How the data were processed

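Gene-level values were read from the single deposited table of 8 libraries. The submitters' processing notes name STAR, Subread, featureCounts and the build mm10, and give neither versions nor settings. The authors named the deposited values read counts, but each library holds the same 910 distinct whole numbers, so they were treated as a normalized score, a step that no label or header records. With limma (3.58.1, R 4.3.3), 4 group means were fitted over all 8 libraries on log2(value + 5) for the 13150 genes that reached 10 in 2 or more libraries, with the variance prior fitted as a trend with level, 4 residual degrees of freedom and Benjamini-Hochberg adjustment over all of them. Calls were made at an adjusted p under 0.05. The procedure was tested on simulated data.

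The members, the lists and the tests were chosen with earlier results of these data known. Genes named are the catalytic and redox subunits, members with isoforms, the members of each complex with the highest and lowest called fold changes, and the highest and lowest called genes of each list. Accessory subunits and markers named beyond that were chosen after their values were seen. Transcripts and 3′ UTRs came from GENCODE M21 (GRCm38) and matched 76 of 77 members, and promoters and the microRNA from RefSeq (GRCm38.p6). Alternatives changed the scaling, pseudocount, filter, variance prior, libraries in the fit, replicate block, fold limit, each library in turn and the trend with transcript length. The labels do not state a pairing by letter, and over all genes the libraries of 1 letter deviated together only weakly across groups. The letters were therefore used as pairs only in the replicate block. The values of 1 member are counted but not reported here. With no depth known, no counting interval could be given.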

Additional observations from a re-analysis of the deposited data

How the results depend on the processing

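In activated over quiescent cells, the count of 67 members higher and 2 lower ranged from 59 to 68 and from 2 to 3 under both pseudocounts, both filters, the other scaling and variance prior, the fit of the 2 groups alone and the replicate block. A limit of 1 on the log2 fold change left 39 higher and 0 lower. Leaving out 1 library gave 64 to 67 higher and 1 to 2 lower, the fewest higher without quiescent library b. Removing the trend with transcript length gave 27 higher and 16 lower, and 28 members changed sign. Of these, the members past the threshold were Cox8a (-0.95), Cox5a (-0.95), Cox6a1 (-0.80), Ndufa1 (-0.71), Uqcrb (-0.55), Ndufc2 (-0.52), Cox4i1 (-0.49), Ndufb5 (-0.39), Atp5g3 (-0.39), Uqcrfs1 (-0.38), Atp5e (-0.36), Ndufv1 (-0.35) and Cox7a2 (-0.33). Those not past it were Cox7c (-0.26), Ndufs7 (-0.24), Ndufb6 (-0.23), Ndufa9 (-0.22), Uqcr11 (-0.20), Uqcr10 (-0.20), Cox5b (-0.16), Ndufb11 (-0.16), Atp5h (-0.12), Atp5l (-0.090), Uqcrh (-0.077), Ndufs6 (-0.065), Atp5k (-0.059), Atp5j (-0.056) and Ndufa6 (-0.026). The members are short genes and the curve was fitted on other genes, and the cause of the trend was not tested. The shares of all genes called also moved under rescaling and with the length trend removed, as given above for this comparison. Member counts under each setting in this section therefore do not by themselves show a change particular to the members.

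With miR-15a over the control microRNA, the 20 members higher became 33 under median-ratio scaling, 10 in the fit of the 2 groups alone and 0 with the limit on the fold change. Leaving out 1 library gave 11 to 21 higher and 0 to 1 lower, the fewest without control microRNA library b. In miR-15a over activated cells, 29 higher and 2 lower became 17 higher with the variance prior without trend, 1 lower with a minimum value of 50, and 0 higher and 1 lower with the limit on the fold change. Leaving out 1 library gave 10 to 29 higher and 2 to 5 lower. In control microRNA over activated cells, 2 higher and 1 lower became 3 lower without a filter, 0 lower at a minimum of 50, 0 higher with the variance prior without trend, 0 and 0 in the fit of the 2 groups alone, 5 higher with the length trend removed and 0 higher with the limit on the fold change. Leaving out 1 library gave 0 to 2 higher and 0 to 1 lower.

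In miR-15a over quiescent cells, removing the length trend left 38 higher and 4 lower, and the limit on the fold change left 47 higher. Leaving out 1 library gave 70 to 71 higher and 0 to 1 lower. In control microRNA over quiescent cells, the length trend removed left 32 higher and 11 lower, the limit on the fold change left 36 higher and 0 lower, and median-ratio scaling gave 2 lower. Leaving out 1 library gave 63 to 69 higher and 0 to 1 lower. The cause of these shifts was not tested. The fits of 2 groups alone, given above, had fewer libraries to estimate the spread, and the part of this was not tested either.

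The replicate block by library letter gave 67 higher and 2 lower on activation and 22 higher and 0 lower with miR-15a over the control. In control microRNA over activated cells it left 1 higher. Whether the letters pair the samples is not stated. Deviations of libraries with the same letter correlated at -0.07 to 0.09 between groups over all genes and at -0.18 to 0.22 over the members. They were negative in the pairs with quiescent cells and positive among the activated groups. Values this small cannot show whether the samples were paired. With 2 libraries a group and no known depth, differences smaller than the spread between libraries could not be seen, and values tied at shared steps can make an SE too small.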

Other observations

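Some genes of the lists that feed or regulate the chain also differed between groups. Vegfa, a growth factor induced by low oxygen, averaged 2798 in activated cells and 197 in quiescent ones, and 1738.5 with miR-15a against 2798 in activated cells. Adm averaged 43.5 in activated cells and 420.5 in quiescent ones. Etfb, which feeds electrons from fatty acid oxidation to ubiquinone, averaged 606 in activated cells and 135.5 in quiescent ones. Coq2, an enzyme of ubiquinone synthesis, averaged 138 in activated cells and 285 in quiescent ones, and 276.5 with miR-15a against 138 in activated cells. Ldhb, the lactate dehydrogenase subunit that favours pyruvate, averaged 63.5 with miR-15a and 22 in activated cells.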
